A study of Homo sapiens with 6 samples.

Results

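The WASH complex and retromer are a pair of protein assemblies that act together on endosomes, and 10 of their genes were followed in HCT116 cells with and without PTTG1. The 10 genes were WASHC3, WASHC4, WASHC5 and WASHC2C of the WASH complex, CAPZA1 and CAPZB of the capping protein that binds to it, VPS35, VPS26A and VPS29 of retromer, and SNX27, its cargo adaptor. They are 10 of 20037 genes that could be named on the array, and every probe named for them by a current or an older symbol was taken, 16 probes in all. The set was chosen by the measured intensity differences between the 2 lines, which were already known when it was put together, so the levels of these genes are given as a description, with no p-value. The calls of the model among them are counted beside those of all genes and are not a test of the set. Total RNA of 3 PTTG1-/- and 3 PTTG1+/+ samples was hybridized to 6 Illumina HumanHT-12 V4 arrays, which read 1 colour. HCT116 is a line of human colorectal carcinoma cells, and both groups were grown under standard conditions with no drug or other treatment. In the PTTG1-/- cells the gene had been removed by homologous recombination, and the PTTG1+/+ cells are the parental line. PTTG1 encodes securin, the inhibitor of separase that holds sister chromatids together until anaphase. There is 1 knockout line and the sources used here do not say whether it is a single clone, so loss of PTTG1 cannot be told apart from any other difference between the lines. Separate cultures are not stated either, and a p-value here reflects the spread among 3 samples that may be technical repeats.

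On endosomes, retromer gathers membrane proteins that are to be spared from the lysosome and sends them back to the Golgi or to the cell surface. VPS35 is its scaffold, with VPS26A and VPS29 at either end, and SNX27 binds cargo through a PDZ domain and brings it to VPS26A. The WASH complex is recruited by VPS35 through WASHC2C and switches on the Arp2/3 complex, which builds branched actin on the endosome and so keeps cargo in its own patch of membrane. WASHC1 carries the activating end, WASHC4 and WASHC5 are the large structural subunits, WASHC3 is the smallest, and the CAPZA1 and CAPZB dimer caps actin filaments.

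Levels are log2 intensities after background correction and quantile normalization, and levels of different probes cannot be set against each other. A probe was kept if it was above background (detection p under 0.05, from the negative control probes) on 3 or more of the 6 arrays, and the brightest kept probe stood for its gene. This left 10642 genes. A moderated linear model (limma) with Benjamini-Hochberg adjustment placed 1849 of them, 17.4%, past an adjusted p of 0.05, of which 1020 (9.58%) were higher and 829 (7.79%) were lower in PTTG1-/- cells. The levels of the 3 samples of each line did not overlap for 3845 genes, or 36.1%. Between 35.7% and 37.3% of probes were above background on each array. PTTG1 itself was checked at both of its probes. One (ILMN_1753196) stayed within background in all 3 PTTG1-/- samples and was at least 49.2-fold lower in them. The other (ILMN_2042771), whose place in the transcript was not looked up here, was 1.87-fold lower (adjusted p = 0.00101). It was still above background in all 3 PTTG1-/- samples, with a mean intensity of 2293 against 4200 in PTTG1+/+ samples. Markers of fibroblasts (1 of 7 tested, COL1A1) and endothelium (0 of 4) were nearly all below background, and 6 of 10 markers of intestinal epithelium were tested, with CDX1, LGALS4 and VIL1 below background on all arrays. Of those 6, 3 had a positive and 3 a negative difference. CDH1 fell by 0.53 (adjusted p = 0.00395) and EPCAM by 0.32 (adjusted p = 0.0337), KRT19 at 0.24 did not pass (adjusted p = 0.0522), and KRT18, CDX2 and KRT8 were at 0.06, 0.03 and -0.17. For all 10 markers the summed level of the list was between 17189 and 18762 in PTTG1-/- samples and between 18634 and 19658 in PTTG1+/+ samples. Of 7 blood cell markers with a probe 3 were tested and 2 rose, CD68 (0.56) and HBA1 (0.44), with a summed level between 795 and 891 in PTTG1-/- samples and between 640.0 and 685 in PTTG1+/+ samples, while CD3E, LYZ and PTPRC were below background on all arrays. The part of these markers in the results was not tested.

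WASHC3 was the member that stood apart. Its probe (ILMN_1715569, listed under the older symbol CCDC53) read 1060.8, 1135.8 and 1454.2 intensity units in the 3 PTTG1-/- samples, against 369.2, 368.7 and 381.2 in the 3 PTTG1+/+ samples. Every PTTG1-/- sample was thus far above every PTTG1+/+ sample before any correction. After normalization the log2 levels were 10.10, 10.13 and 10.31 in PTTG1-/- samples and 8.32, 8.43 and 8.43 in PTTG1+/+ samples. Replicate 3 was the highest of the PTTG1-/- samples, and the gap between the lines was many times the spread within either. The means were 10.18 ± 0.11 in PTTG1-/- cells and 8.39 ± 0.06 in PTTG1+/+ cells (SD, n = 3 each). This is a difference of 1.79 on the log2 scale (SE 0.08), or 3.45-fold higher, and only 3 of the 10642 genes had a larger positive difference. A level from a whole culture cannot tell more RNA per cell from more cells that hold the RNA. WASHC3 has 1 probe on the array, so no second probe could be set beside it. Without each array in turn the difference lay between 1.72 and 1.83, and in the authors' own processed values it was 1.70.

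**Figure D1:**
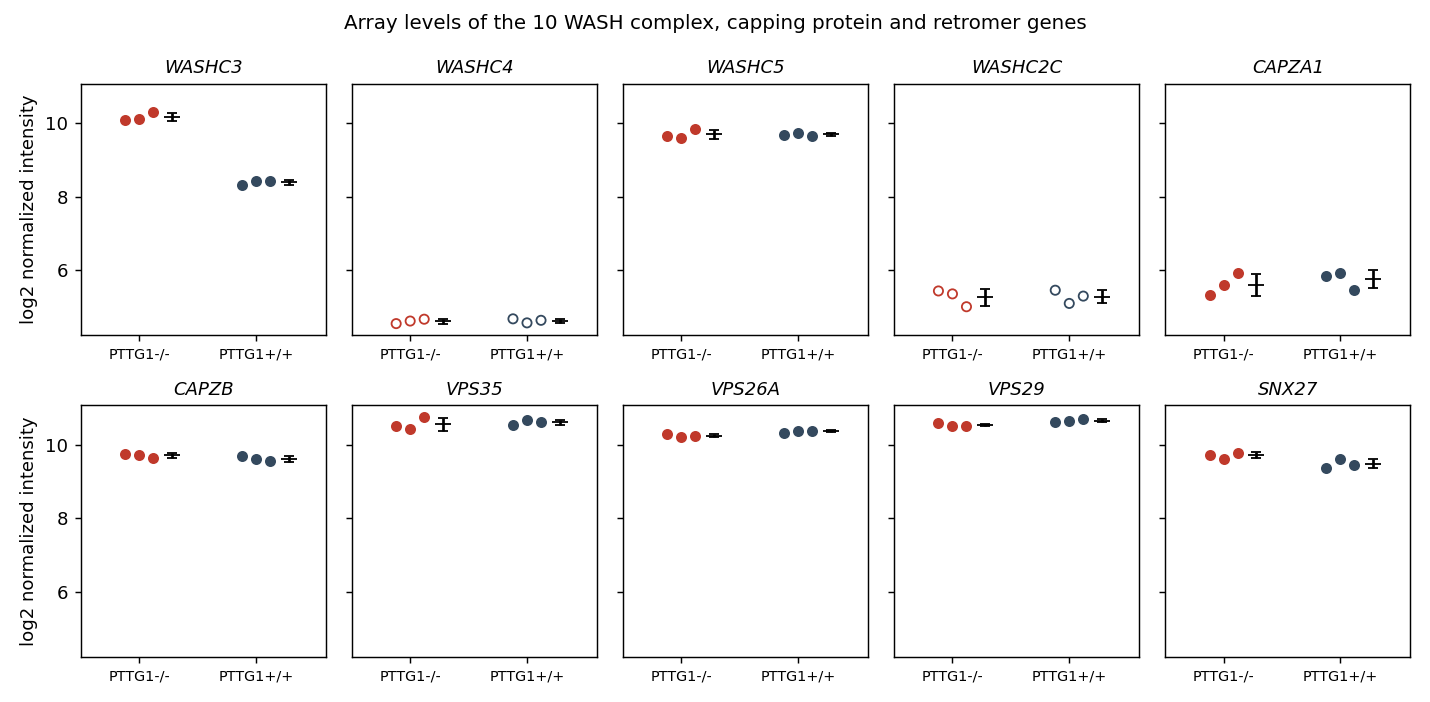
Normalized log2 intensity (vertical axis) of the 10 genes in each PTTG1-/- sample (red, left) and PTTG1+/+ sample (dark blue, right), at the brightest probe of each gene, with the mean and SD of 3 samples in black. Open circles mark a gene that was not above background on every array of that line. WASHC3 sits between 10.10 and 10.31 in PTTG1-/- samples and between 8.32 and 8.43 in PTTG1+/+ samples, whereas in the other panels the lines overlap or lie side by side.

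The other WASH subunits showed no comparable shift. WASHC5, also known as strumpellin, had log2 levels of 9.66, 9.60 and 9.84 in PTTG1-/- samples and 9.69, 9.74 and 9.66 in PTTG1+/+ samples. The lines overlapped and the difference was 0.004 (SE 0.09), or -0.07 without PTTG1-/- replicate 3 and 0.05 without PTTG1-/- replicate 2. WASHC2C, the long-tailed subunit that binds VPS35, had 4 probes, of which only ILMN_1670189 was kept, on 2 of 3 arrays of each line above background. It read 5.43, 5.35 and 5.00 in PTTG1-/- samples against 5.45, 5.09 and 5.29 in PTTG1+/+ samples, a difference of -0.02 (SE 0.13). These dim levels overlapped, the difference ran between -0.11 without PTTG1+/+ replicate 2 and 0.11 without PTTG1-/- replicate 3, and the other 3 probes were below background on all 6 arrays. WASHC4, the scaffold also known as SWIP, was below background on all 6 arrays at its single probe, with raw intensities of 54.6, 56.7 and 62.7 in PTTG1-/- samples against 57.8, 51.7 and 58.9 in PTTG1+/+ samples. WASHC4 therefore has no measured difference and is the member left out of the counts.

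WASHC1, the subunit that activates Arp2/3, is no member, but sits in the same complex as WASHC3. Human chromosome ends carry near-identical copies of WASHC1, and probes for WASHC1, WASH2P, WASH3P and WASH7P may read each other's transcripts, so these values are uncertain. The brightest WASHC1 probe read 10.82, 10.93 and 10.55 in PTTG1-/- samples and 10.37, 10.55 and 10.52 in PTTG1+/+ samples. The lines met at 10.55, and the difference of 0.29 (SE 0.11) did not pass the test (adjusted p = 0.105), though it did in 3 of 17 alternatives, without PTTG1-/- replicate 3 (adjusted p = 0.0194), without background correction (adjusted p = 0.0481) and with a trended, robust prior (adjusted p = 0.0346). The highest adjusted p was 0.364, with a gene's probes averaged. The second WASHC1 probe differed by 0.05. Of the 10 kept probes of these 4 genes, 8 were higher in PTTG1-/- cells, and one passed when each probe was tested alone, against 12.8% of the 17357 kept probes. It belongs to WASH7P, a non-coding copy that rose (0.37, SE 0.09, adjusted p = 0.0260 over genes) and was singled out after its values were seen. WASHC2A, the near-twin of WASHC2C, was below background.

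Both genes of the capping protein stayed close to the parental line. CAPZB, the beta subunit, read 9.76, 9.74 and 9.65 in PTTG1-/- samples against 9.70, 9.61 and 9.56 in PTTG1+/+ samples, a difference of 0.09 (SE 0.08). Its second probe read 8.49, 8.48 and 8.51 in PTTG1-/- samples against 8.45, 8.27 and 8.56 in PTTG1+/+ samples, a difference of 0.07 (SE 0.09). The 2 probes thus gave nearly the same small value, with overlapping lines at each. CAPZA1, an alpha subunit, was dim at 5.31, 5.58 and 5.91 in PTTG1-/- samples and 5.85, 5.92 and 5.46 in PTTG1+/+ samples. Its difference of -0.14 had the largest error of the members (SE 0.16) and ran between -0.29 and 0.001 as each array was left out. The second CAPZA1 probe was below background on all arrays.

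Retromer itself was bright and nearly level. VPS35 read 10.51, 10.43 and 10.77 in PTTG1-/- samples and 10.54, 10.69 and 10.63 in PTTG1+/+ samples. PTTG1-/- replicate 3 was above and the other PTTG1-/- samples below every PTTG1+/+ sample, so that the difference was -0.05 (SE 0.10). It was -0.15 without PTTG1-/- replicate 3 and 0.02 without PTTG1-/- replicate 2. VPS26A read 10.29, 10.21 and 10.26 in PTTG1-/- samples and 10.34, 10.39 and 10.39 in PTTG1+/+ samples, a difference of -0.12 (SE 0.07). VPS29 read 10.59, 10.53 and 10.52 in PTTG1-/- samples and 10.62, 10.66 and 10.70 in PTTG1+/+ samples, a difference of -0.11 (SE 0.07). For both of these end subunits every PTTG1-/- sample was lower than every PTTG1+/+ sample, by a margin of at most 1.09-fold in the means. A second, dimmer VPS26A probe differed by 0.06 in the other direction (SE 0.15), with overlapping lines.

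SNX27 was the only retromer gene that was higher in every PTTG1-/- sample. It read 9.74, 9.63 and 9.79 in PTTG1-/- samples and 9.38, 9.61 and 9.47 in PTTG1+/+ samples. PTTG1-/- replicate 2 and PTTG1+/+ replicate 2 were only just apart. The means were 9.72 ± 0.08 in PTTG1-/- cells and 9.49 ± 0.12 in PTTG1+/+ cells (SD, n = 3 each), a difference of 0.23 (SE 0.09) or 1.17-fold. The value stayed between 0.18 and 0.29 as each array was left out.

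Of the 10 members 9 were above the filter and 1, WASHC3, was among the calls of the model, beside 17.4% of all genes. With a trended, robust prior SNX27 was called as well, beside 2265 of all 10642 genes. The lines did not overlap for 4 of the 9, WASHC3 and SNX27 higher and VPS26A and VPS29 lower in PTTG1-/- cells, beside 36.1% of all genes. Since the members were chosen with this contrast known, nothing is read from these counts. The median difference over the 9 members was -0.02, with 4 higher and 5 lower, and over all genes it was 0.001. Without WASHC3 the remaining 8 members lay between -0.14 and 0.23, with a median of -0.03. The median size of the difference was 0.11 for the 9 members and 0.14 for all genes.

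**Figure D2:**
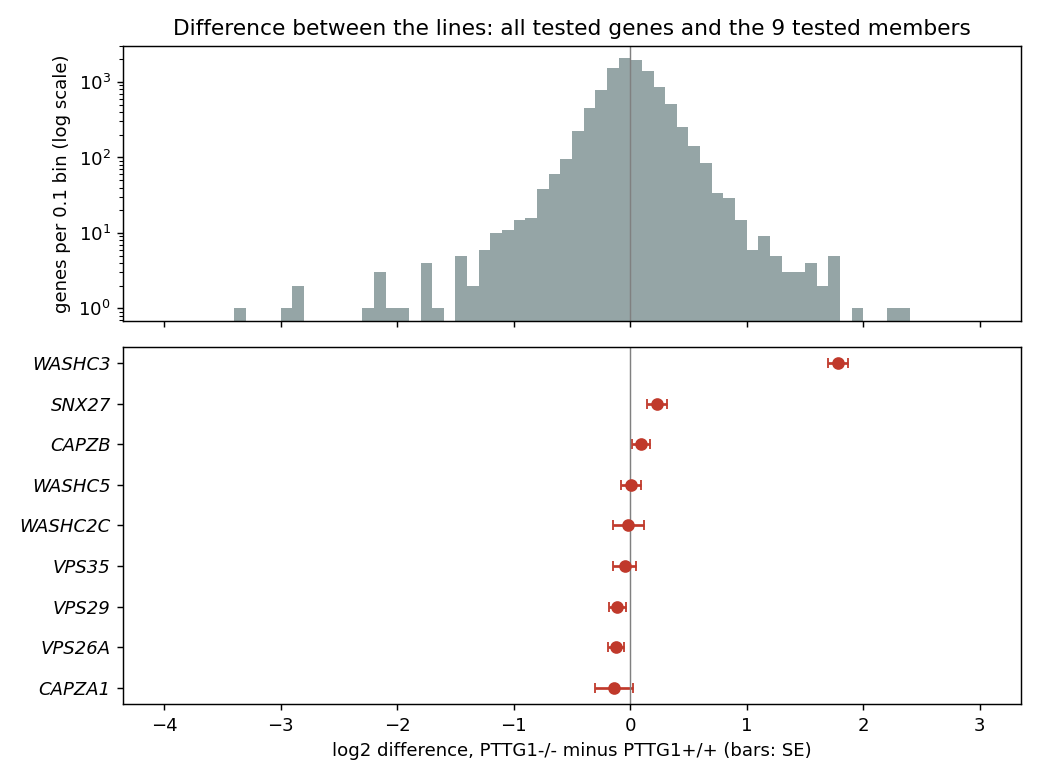
Top, number of genes (log scale) per bin of 0.1 in the log2 difference between PTTG1-/- and PTTG1+/+ cells, for all 10642 genes. Bottom, the same difference with its SE for the 9 tested members. WASHC3 lies at 1.79, in the right tail, and the other 8 lie between -0.14 and 0.23, in the body of the distribution.

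The genes around WASH and retromer were read from 8 lists of 82 genes, of which 70 were tested. Of these 7 rose, 4 fell and 59 did not pass the test, so that 15.7% passed, beside 17.4% of all genes, with a median difference of 0.006. None of the other subunits passed: WASHC1, the retromer subunit VPS26B (0.17, adjusted p = 0.409) and the capping subunit CAPZA2 (-0.09). None of the 9 genes tested of the Arp2/3 complex, the target of WASH, passed either. They lay between -0.17 and 0.18. Those with the smallest p were ARPC3 (0.14, adjusted p = 0.292), ARPC1A (0.12), ARPC5 (-0.17) and the core subunit ACTR3 (-0.15, adjusted p = 0.328).

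Of 8 genes for other activators of Arp2/3, including the WAVE complex, which drives branched actin at the cell edge, 1 rose and 1 fell, so that 2 of 8 passed, beside 17.4% of all genes. CYFIP2, the WAVE subunit that receives the Rac signal, read 10.09, 10.12 and 9.98 in PTTG1-/- samples and 9.39, 9.36 and 9.35 in PTTG1+/+ samples. The lines were well apart, and CYFIP2 rose 1.62-fold (0.69, SE 0.08, adjusted p = 4.71e-04). A second kept CYFIP2 probe also rose (0.92, adjusted p = 1.77e-04 over probes). BRK1, the smallest WAVE subunit, fell by 0.27 (adjusted p = 0.0371), a call that was lost in 5 of 6 fits without 1 array, with an adjusted p of up to 0.142 without PTTG1+/+ replicate 2, and kept only without PTTG1-/- replicate 3. Of 8 regulators of capping protein 1 passed, or 12.5%. MTPN, or myotrophin, which sequesters capping protein, fell by 0.33 (adjusted p = 0.0277), but its other probe differed by -0.002, and the call was kept only without PTTG1+/+ replicate 2 or without PTTG1-/- replicate 3 (otherwise adjusted p between 0.0624 and 0.0967).

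Among 12 tested sorting nexins of endosomes, 2 rose and 1 fell, so that 3 of 12 passed, beside 17.4% of all genes. SNX30 read 7.80, 7.88 and 8.05 in PTTG1-/- samples and 7.37, 7.35 and 7.46 in PTTG1+/+ samples, without overlap. It rose 1.43-fold (0.51, SE 0.09, adjusted p = 0.00462). SNX12, a close relative of SNX3, was dim, above background on only 2 of 3 PTTG1+/+ arrays, and rose by 0.41 (adjusted p = 0.0121). Its difference was 0.22 without background correction and 0.23 in the authors' processed values, and it did not pass by the methods' t-test (adjusted p = 0.0576). SNX5, which pairs with SNX1 or SNX2 in the complex that bends endosomal membrane, fell by 0.32 (adjusted p = 0.0274). Leaving out replicate 1 or replicate 2 of either line ended the call for SNX5 (adjusted p between 0.0534 and 0.117). Its other probe differed by -0.35 and did not pass (adjusted p = 0.0921 over probes).

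The 15 genes of retriever and the CCC complex, a related route back to the surface that also works with WASH, gave 1 gene that rose and 1 that fell, or 13.3% beside 17.4% of all genes. COMMD9, a subunit of CCC, read 7.41, 7.25 and 7.19 in PTTG1-/- samples and 7.92, 7.79 and 8.01 in PTTG1+/+ samples. It was 1.54-fold lower (-0.62, SE 0.09, adjusted p = 0.00241), the largest fall in the 8 lists. CCDC93, which joins CCC to WASHC2C, rose by 0.30 (adjusted p = 0.0382), while its other probe differed by 0.10 (adjusted p = 0.598 over probes). The call for CCDC93 was kept only without PTTG1-/- replicate 3 and was otherwise lost (adjusted p between 0.0821 and 0.122). None of 8 regulators of WASH and retromer passed. The nearest was FKBP15, an endosomal partner of WASH, at -0.24 (adjusted p = 0.0555).

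Of 7 tested genes for cargo carried by retromer 3 rose, beside 9.58% of all genes, and none fell. All 7 had a positive difference, with a median of 0.28, beside 5338 of the 10642 genes and a median of 0.001. For IGF2R, SLC11A2 and ATP7A, however, it was only 0.03, 0.05 and 0.07 (adjusted p = 0.851, 0.659 and 0.792), no larger than its SE. Of the 3 calls only that of SLC2A1 held without each array in turn. SLC2A1, the glucose transporter GLUT1 that SNX27 and retromer return to the surface, read 10.26, 10.41 and 10.33 in PTTG1-/- samples and 9.54, 9.50 and 9.49 in PTTG1+/+ samples. No other gene of the 8 lists had a larger difference, and SLC2A1 rose 1.77-fold (0.82, SE 0.08, adjusted p = 1.98e-04). WLS, the carrier of Wnt proteins, read 9.42, 9.37 and 9.63 in PTTG1-/- samples and 9.14, 9.07 and 9.05 in PTTG1+/+ samples. It rose by 0.39 (adjusted p = 0.0178), and its 4 other kept probes differed by 0.43, 0.41, 0.22 and 0.12, the first and second past the test over probes (adjusted p = 0.0363 and 0.0312). M6PR, the smaller of the mannose 6-phosphate receptors that bring enzymes to the lysosome, rose by 0.33 (adjusted p = 0.0188). Without PTTG1+/+ replicate 2 or 3 the call for WLS was lost (adjusted p = 0.0607 at the lowest), as was that for M6PR, which was also lost without PTTG1-/- replicate 1 (adjusted p between 0.0572 and 0.0696). SORL1, a sorting receptor, differed by 0.28 at one probe (adjusted p = 0.0794) and by -0.14 at the other.

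**Figure D3:**
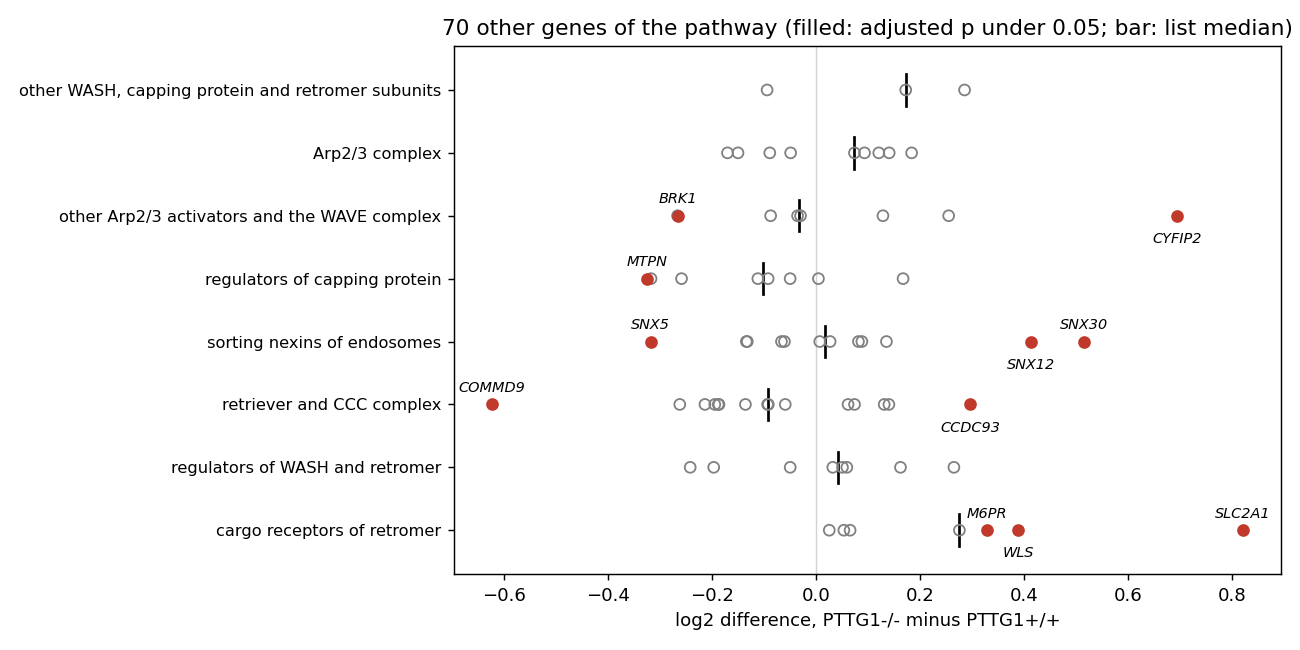
Log2 difference between PTTG1-/- and PTTG1+/+ cells (horizontal axis) for the 70 tested genes of the 8 lists, 1 circle for each gene, with the list median as a black bar. Filled red circles are the 11 genes past an adjusted p of 0.05, from COMMD9 at -0.62 to SLC2A1 at 0.82. All 7 cargo genes lie right of 0, with IGF2R, SLC11A2 and ATP7A close to it.

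WASHC3 lies on chromosome 12, and the genes beside it were read in chromosomal order. Of the 5 nearest tested genes on each side 2 rose, 2 fell and 6 did not pass, or 4 of 10 beside 17.4% of all genes, and the median difference was -0.07. DRAM1, directly next to WASHC3, encodes a lysosomal membrane protein that p53 induces and that acts in autophagy. It read 9.07, 9.05 and 8.97 in PTTG1-/- samples and 8.14, 8.24 and 8.14 in PTTG1+/+ samples. The lines were clearly apart, and DRAM1 rose 1.81-fold (0.86, SE 0.08, adjusted p = 1.63e-04). NUP37, a nuclear pore gene directly on the other side, read 11.08, 11.15 and 11.26 in PTTG1-/- samples and 11.29, 11.36 and 11.28 in PTTG1+/+ samples, and its difference of -0.15 did not pass (adjusted p = 0.230). DRAM1 has 1 probe on the array.

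GNPTAB, which encodes the enzyme that tags lysosomal proteins for the mannose 6-phosphate receptors, lies beyond DRAM1 and differed by 0.07 (adjusted p = 0.665). CHPT1, a choline phosphotransferase one tested gene further, read 7.31, 7.41 and 7.66 in PTTG1-/- samples and 8.29, 8.27 and 8.31 in PTTG1+/+ samples. It was 1.78-fold lower (-0.83, SE 0.10, adjusted p = 7.17e-04), and its second probe also fell, by 0.77 (adjusted p = 0.00305 over probes). Beyond NUP37, PARPBP, a partner of PARP1, fell by 0.29 (adjusted p = 0.0253). HSP90B1, a chaperone of the endoplasmic reticulum, rose by 0.31 (adjusted p = 0.0399). Both of these calls were frail. That of HSP90B1 was lost without any 1 of the 6 arrays (adjusted p between 0.0516 and 0.134), and that of PARPBP was kept only without PTTG1-/- replicate 3 (otherwise between 0.0642 and 0.0888).

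**Figure D4:**
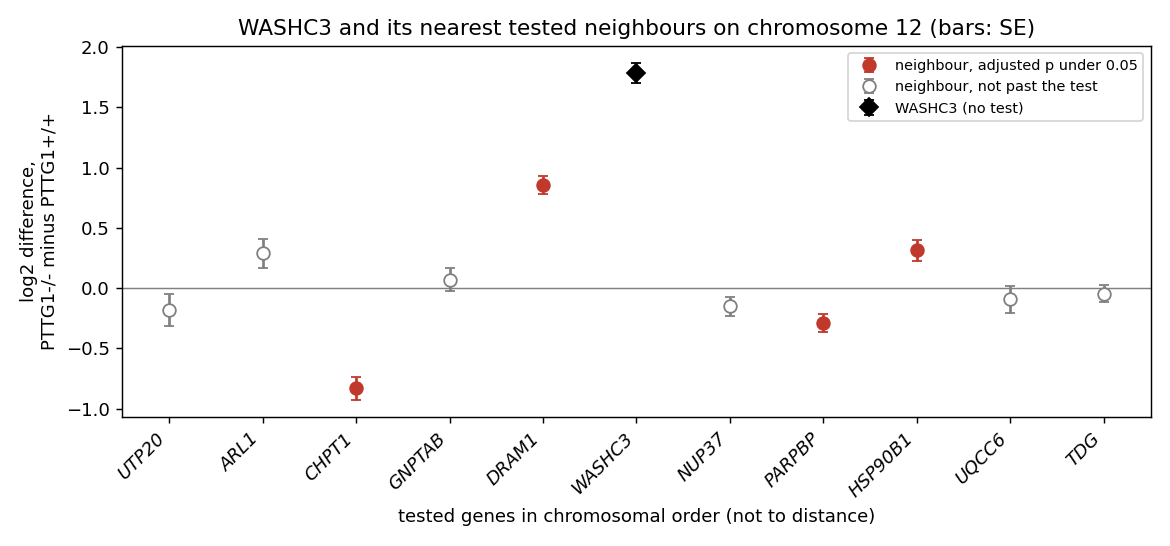
Log2 difference between PTTG1-/- and PTTG1+/+ cells, with its SE, for WASHC3 (black diamond) and its 5 nearest tested genes on each side in chromosomal order, not to distance. Filled red circles passed the test: DRAM1 at 0.86 and CHPT1 at -0.83 stand out, on the same side of WASHC3 and in opposite directions.

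Around the other members the share of calls was nearer the background, with 2 of 10 or fewer at each. Large differences were also called there, at dim levels. DEPP1 beside WASHC2C rose by 1.00 (adjusted p = 8.32e-05). Beside VPS29, MYL2 rose by 0.76 (adjusted p = 0.00402) and VHRT fell by 0.78 (adjusted p = 0.0152). Beside WASHC4, also on chromosome 12, 2 of 10 rose and none fell. The nearest tested genes other than NOPCHAP1 did not pass: SLC41A2 differed by 0.03, APPL2, an adaptor protein of early endosomes, by 0.06 and NUAK1, a kinase, by 0.08. CKAP4, a membrane protein of the endoplasmic reticulum, rose by 0.42 (adjusted p = 0.0109), and NOPCHAP1, an assembly factor of small nucleolar particles, rose by 0.35 (adjusted p = 0.0177). The call for NOPCHAP1 was lost without any 1 of the PTTG1+/+ arrays or PTTG1-/- replicate 1 (adjusted p between 0.0521 and 0.0645). Over the 100 neighbours of all 10 members, 10 rose and 8 fell, or 18.0% beside 17.4% of all genes.

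The sequences before the starts of WASHC3 and of the genes on either side are shown. Of these 2 neighbours DRAM1 was higher in PTTG1-/- cells and NUP37 was not. The sequences are from RefSeq (GRCh38.p14), which had an upstream window for 8 of the 10 members, and each is written 5′ to 3′ along its own gene. Capitals mark a cyclic AMP response element (TGACGTCA) or a CCAAT box (CCAAT, or its reverse complement). WASHC3 lies at chr12:102062125-102062241 (minus strand, the 117 bases of the window that lie outside the gene), DRAM1 at chr12:101877330-101877579 (plus strand) and NUP37 at chr12:102120115-102120364 (minus strand).
WASHC3: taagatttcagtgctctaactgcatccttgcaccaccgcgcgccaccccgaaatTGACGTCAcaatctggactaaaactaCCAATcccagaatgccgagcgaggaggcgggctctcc
DRAM1: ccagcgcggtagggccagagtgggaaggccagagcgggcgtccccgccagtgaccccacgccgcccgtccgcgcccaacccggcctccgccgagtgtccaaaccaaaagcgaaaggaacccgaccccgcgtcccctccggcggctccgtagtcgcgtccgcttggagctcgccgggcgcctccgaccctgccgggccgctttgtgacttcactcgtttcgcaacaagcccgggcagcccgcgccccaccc
NUP37: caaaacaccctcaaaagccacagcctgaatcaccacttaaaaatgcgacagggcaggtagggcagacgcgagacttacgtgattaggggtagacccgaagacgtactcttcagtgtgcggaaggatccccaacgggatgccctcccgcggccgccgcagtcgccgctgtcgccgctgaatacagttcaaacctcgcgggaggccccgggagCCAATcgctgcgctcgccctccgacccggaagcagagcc
Also searched were an E-box (CACGTG), an ETS core (CCGGAAG) and a TATA box (TATAAA), all on both strands of the whole window of 250 bases. WASHC3 held the response element, a CCAAT box and an ETS core, NUP37 a CCAAT box and an ETS core, and DRAM1 none of the 5. The ETS core of WASHC3 is not within the 117 bases shown, and so lies at least partly in the annotated range of the gene. Of 35116 windows of this length 1.65% held the response element, 32.0% the CCAAT box, 6.35% the E-box, 8.52% the ETS core and 10.7% the TATA box. Among the members the CCAAT box was also found for CAPZA1, CAPZB, VPS35 and VPS29, the response element only for WASHC3, and an E-box and an ETS core for WASHC4. These matches describe letters in a window and not binding.

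The genes whose profile over the 6 arrays was most like that of WASHC3 were found as those with the smallest root mean square distance from it, each as log2 minus its PTTG1+/+ mean. They were TGM2, a transglutaminase (distance 0.06, difference 1.74), PELI2, a ubiquitin ligase (0.07, 1.70), TP53I3, an oxidoreductase induced by p53 (0.08, 1.78), HEY2, a transcription factor of the Notch pathway (0.09, 1.73), and CEACAM1, a cell adhesion molecule (0.13, 1.69). With the PTTG1+/+ mean taken off, this distance depends mostly on the difference between the lines, the value by which the members were chosen. These genes are thus mainly those with a difference near that of WASHC3, and no other likeness is read from them. PELI2, HEY2 and CEACAM1 were below background on all 3 PTTG1+/+ arrays, so that their differences are on a floor that WASHC3 does not have. TGM2, PELI2 and TP53I3, like WASHC3, were highest in PTTG1-/- replicate 3, TGM2 for example at 1.68, 1.64 and 1.89 above its PTTG1+/+ mean.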

How the data were processed

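The authors deposited, per probe and array, unnormalized intensity and a detection fraction that rises with intensity, so 1 minus the fraction served as detection p. They also deposited processed log2 values, with a median of 6.07 on every array. The methods name the manufacturer's protocol and Partek, and the normalization is not given in the sources used here. From the intensities, limma 3.58.1 in R 4.3.3 corrected background (neqc, offset 16), normalized by quantiles and took log2. Of 47310 probes (12 unnamed lines left out) 17357 were kept. Symbols came from the platform annotation, updated to GRCh38.p14. lmFit and eBayes compared 3 PTTG1-/- with 3 PTTG1+/+ arrays over 10642 genes, and SEs are those of this fit. On simulated data it recovered 57% of changes of 0.5 and 94% of changes of 1 (log2), 100 of each, with 8 false calls. Far fewer genes were changed there than were called here, so these shares need not hold for this contrast. The number of arrays limits the precision.

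The members, gene lists and tests were chosen with earlier results of these data known. Named were all members, every called gene of the lists, and some others of the lists, not always those with the smallest p. Also named were the nearest 2 tested genes on each side of WASHC3 and WASHC4 and any called among 5, the 5 genes most like WASHC3, and PTTG1. DEPP1, MYL2 and VHRT were named for the size of their differences. Genes of the lists without a named probe were not analysed here. Same-numbered samples did not deviate together. Alternatives covered background correction, normalization, filter, probe choice, test, threshold, replicate block and leaving out each array.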

Additional observations from a re-analysis of the deposited data

How the results depend on the processing

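WASHC3 differed by 1.67 without background correction and by 1.69 with an offset of 50, and leaving out each array gave 1.72 to 1.83. The median difference of the members lay between -0.07 and 0.02 without each array. The numbers of genes called were 1849 of all genes, 11 of the pathway lists and 18 of the neighbours. They were 1140, 5 and 10 under median scaling and 1044, 5 and 9 without normalization between arrays. By an unpaired t-test, given in the methods though not specifically for the arrays, they were 936, 7 and 11, adjusted in the same way. At a threshold of 0.01 they were 742, 4 and 7. They were higher, at 2195, 13 and 25, without background correction, 2191, 12 and 25 with an offset of 50, 2186, 12 and 25 in the authors' processed values, and 2265, 15 and 26 with a trended, robust prior. Without each array they ranged from 1010 to 2221, from 6 to 17 and from 9 to 20. PTTG1-/- replicate 3 was the array whose absence raised the pathway count to 17. CYFIP2, SNX30, COMMD9 and SLC2A1 were the 4 pathway genes called under all 17 alternatives at the 0.05 threshold, and the cause of the other losses was not tested. With the replicate block the counts were 1346, 8 and 13, with BRK1, CCDC93, SNX5, PARPBP and HSP90B1 among the calls lost. The deviations of same-numbered samples from the mean of their line correlated at -0.07, -0.01 and -0.11. Whether same-numbered samples shared a day or batch is not stated in the sources used here. The difference of GNPTAB, not past the test, turned to -0.027 without PTTG1-/- replicate 3 and reached 0.14 without PTTG1-/- replicate 1. WASHC4 and the dim probes of WASHC2C and CAPZA1 are limited by signal over background.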
